A study of Sus scrofa with 24 samples.

Results

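The F-box and TRIM genes are 2 families of ubiquitin ligase genes, and they were taken here from the deposited table by name: every row whose gene name begins with FBXO, FBXL, FBXW or TRIM followed by a digit. The rule found 137 of the 22154 listed transcripts, under 70 gene symbols. FPKM, the coverage of a transcript scaled to its length and to the reads of the library, was summed over the transcripts of a symbol on a chromosome. That gave 72 loci among the 12017 genes of the table, because FBXO25 stands on 3 chromosomes: its main locus is on chromosome 15, and an unstranded transcript of 1 exon carries the same name on chromosome 4 and on chromosome 10. The FBXO group holds 22 symbols and 47 transcripts, the FBXL group 11 and 19, the FBXW group 6 and 16, and the TRIM group 31 and 55.

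An F-box protein is the part of an SCF ubiquitin ligase (built on SKP1, a cullin and RBX1) that chooses the substrate, and FBXW, FBXL and FBXO proteins differ in whether WD repeats, leucine-rich repeats or other domains do the choosing. Most TRIM proteins are ligases in their own right, with a RING finger, B-boxes and a coiled coil in 1 chain. In skeletal muscle FBXO32 (atrogin-1) and TRIM63 (MuRF1) are the classic ligases of muscle wasting, TRIM54 and TRIM55 are relatives of TRIM63 on the sarcomere, and TRIM72 (MG53) takes part in the repair of the cell membrane.

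The samples were longissimus dorsi muscle, the long muscle of the back, of 24 F1 pigs from 8 Duroc boars and 112 Luchuan sows, chosen from 265 such animals raised alike and slaughtered at 210 ± 6 days. Per the labels, 12 were high and 12 were low in intramuscular fat (IMF). The tissue was collected 25 minutes postmortem, and its polyA RNA gave read pairs of 150 bases. Both groups share the cross, the farm and the diet, and no label gives the fat content, sex or litter of an animal used here. The start of the animal identifiers splits the animals into a set DLC1512 and a set DLC1601 of 12 each, 6 of each fat class, and what that prefix means is not stated. Numbers such as high IMF animal 7 follow accession order within the group and pair nothing.

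Summed FPKM was 351119 to 415572 per library. The depth inferred from the steps of low values was 32.9 to 40.8 M reads, and a single read per kilobase therefore stood for 0.0245 to 0.0304 FPKM. That depth takes each step as 1 read of 150 bases, and whether reads or read pairs were counted is not known. The 12 markers of skeletal muscle fibres summed to 25404 to 59197 FPKM in high and 28636 to 66353 FPKM in low IMF animals. The entry named MB (myoglobin) was listed at 0 in some of them. It averaged 0.518 FPKM, beside 7721 FPKM for CKM, and whether it covers the main transcript of the gene was not tested. The 9 adipocyte markers summed to 68.5 to 212 FPKM in high and 32.3 to 152 FPKM in low IMF animals. ADIG and PPARG were listed at 0 in some low IMF animals. At an unadjusted p under 0.05 (limma), 8 of the 9 were higher in high IMF. LEP (leptin) was 1 of them, with a limma adjusted p of 0.00697. The remaining marker, PLIN1, differed by −0.09 (log2, high minus low IMF, unadjusted limma p = 0.864). The same limit took 6.79% of all genes as higher and 0.893% as lower in high IMF. Of the other marker lists, the endothelial CDH5 was at 10.6 ± 2.51 FPKM in high and 7.32 ± 2.73 FPKM in low IMF muscle (unadjusted p = 0.00893), the red blood cell gene ALAS2 was higher in high IMF muscle (unadjusted p = 0.0247) and the fibre gene MYLPF was higher in low IMF muscle (unadjusted p = 0.0119), and 0 macrophage, fibroblast or lymphocyte markers were under 0.05. The summed adipocyte markers overlapped between high and low IMF animals. The macrophage (10.8 to 36.3 and 4.60 to 32.6 FPKM), endothelial (32.8 to 65.7 and 20.2 to 59.3 FPKM) and fibroblast markers (330 to 988 and 140 to 1370 FPKM) overlapped as well, as did those of lymphocytes (0.548 to 4.10 and 0.440 to 2.07 FPKM) and red blood cells (13.1 to 171 and 9.85 to 82.7 FPKM). The part of these cell types in the members' values was not tested. In bulk muscle, fewer cells of a type and less RNA per cell cannot be told apart. Low IMF animal 10 and high IMF animal 7 stand apart, since their 10 most abundant genes took 18.5% and 20.2% of FPKM, against a median of 28.4% over the 24 animals.

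The 6 most abundant of the 72 loci were all on the list of 12 muscle-linked symbols. TRIM63 had the highest mean over 24 animals, at 76.5 FPKM, and was followed by TRIM54 at 60.0, FBXO40 at 42.9, FBXO31 at 39.4, TRIM72 at 34.5 and FBXO32 at 28.5 FPKM. FBXO40 is the muscle F-box protein that acts on the insulin receptor substrate IRS1, and FBXO31 is an F-box protein best known for cyclin D1. The ranges of neighbours in this order overlapped in every case, so the order of the top 6 is that of their means. TRIM72 stands here with its 1 named transcript. Summed with an unnamed transcript of the same ends it averaged 68.6 FPKM, which would place it second. The 14 loci of the muscle-linked list took 51.8% of the summed FPKM of the 72, although TRIM55, FBXO21, TRIM32 and FBXL22 of that list averaged 6.48, 4.05, 2.85 and 1.38 FPKM.

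Outside that list FBXW5, FBXW4, FBXO22, TRIM28, TRIM7, FBXL4, TRIM45 and FBXO9 averaged between 10.3 and 26.5 FPKM. FBXO30 (MUSA1), the ligase that bone morphogenetic protein signalling holds down in muscle, averaged 17.1 FPKM and completes the 15 loci of 10 FPKM or more. In the pig genome build Sscrofa11.1, TRIM63 lies on chromosome 6 from 83488973 to 83508007, TRIM54 on chromosome 3 from 111834184 to 111852783, FBXO40 on chromosome 13 from 138881514 to 138905399 and FBXO32 on chromosome 4 from 15895310 to 15930934. The other end was long: 49 loci averaged under 5 FPKM and 11 under 1 FPKM. TRIM46, TRIM37, TRIM56 and TRIM66 were listed at 0 in at least 1 animal. TRIM46, with a mean of 0.493 FPKM, is the 1 locus below the limit of 0.5 FPKM for testing, which leaves 71.

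**Figure D1:**
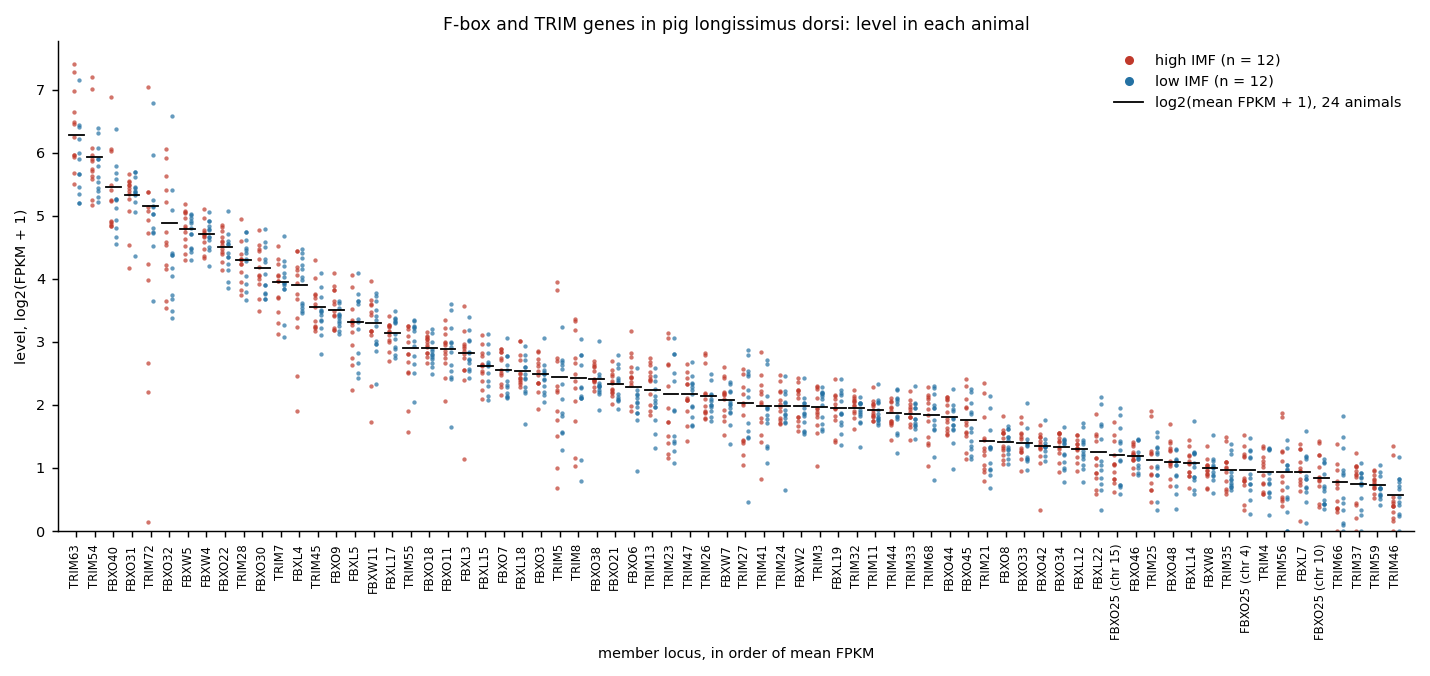
Level of each of the 72 loci in each of 24 animals, as log2(FPKM + 1), in order of mean FPKM; red points are the 12 high and blue points the 12 low IMF animals, and the black bar is the mean over all. The muscle-linked TRIM63, TRIM54, FBXO40, FBXO31, TRIM72 and FBXO32 lead, and TRIM72 reaches from 0.101 to 130 FPKM.

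Members were about as variable between animals as other genes, with a median coefficient of variation (SD over mean of FPKM, 24 animals) of 30.3% against 32.6% for the 11757 genes tested. By role, the median was 49.4% over the muscle-linked loci and 55.1% over the 6 TRIM genes of innate immunity, but 24.8% over the other FBXO genes and 26.1% over the FBXW genes. FBXO18, a DNA helicase with an F-box, was the steadiest locus at 14.9%, followed by FBXW4 at 15.99%. TRIM66, TRIM72 and TRIM46 had the largest coefficients, at 90.5%, 86.1% and 81.7%, and FBXO32 stood at 74.1%. TRIM66 and TRIM46 averaged only 0.705 and 0.493 FPKM and were listed at 0 in some animals. The coefficient of TRIM72 is that of its named transcript. Summed with the unnamed transcript of the same ends, TRIM72 had a coefficient of 43.2%.

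The main comparison asked which of these genes differ between muscle of high and low IMF. No member did at an adjusted p under 0.05 (limma on log2(FPKM + 1), Benjamini-Hochberg over 11757 genes, of which 0.0425% were called higher and 0.00851% lower in high IMF), and the lowest adjusted p was 0.2996, for FBXO6. At an unadjusted p under 0.05, 3 of 71 loci were higher in high IMF (FBXO6, TRIM13 and TRIM63) and 0 were lower, where the same limit took 6.79% of all genes as higher and 0.893% as lower. The median difference was 0.05 on the log2 scale against 0.08 for all genes, and 51 of 71 members (71.8%) lay above 0, as 73.4% of all genes did. After scaling by the trimmed mean of M values (TMM), which moved the median of all genes to 0.00, 32 of 71 lay above 0 and the members' median was −0.04. FBXO6 alone then had an unadjusted p under 0.05 among members, higher in high IMF, where 2.77% of all genes were higher and 2.31% lower.

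**Figure D2:**
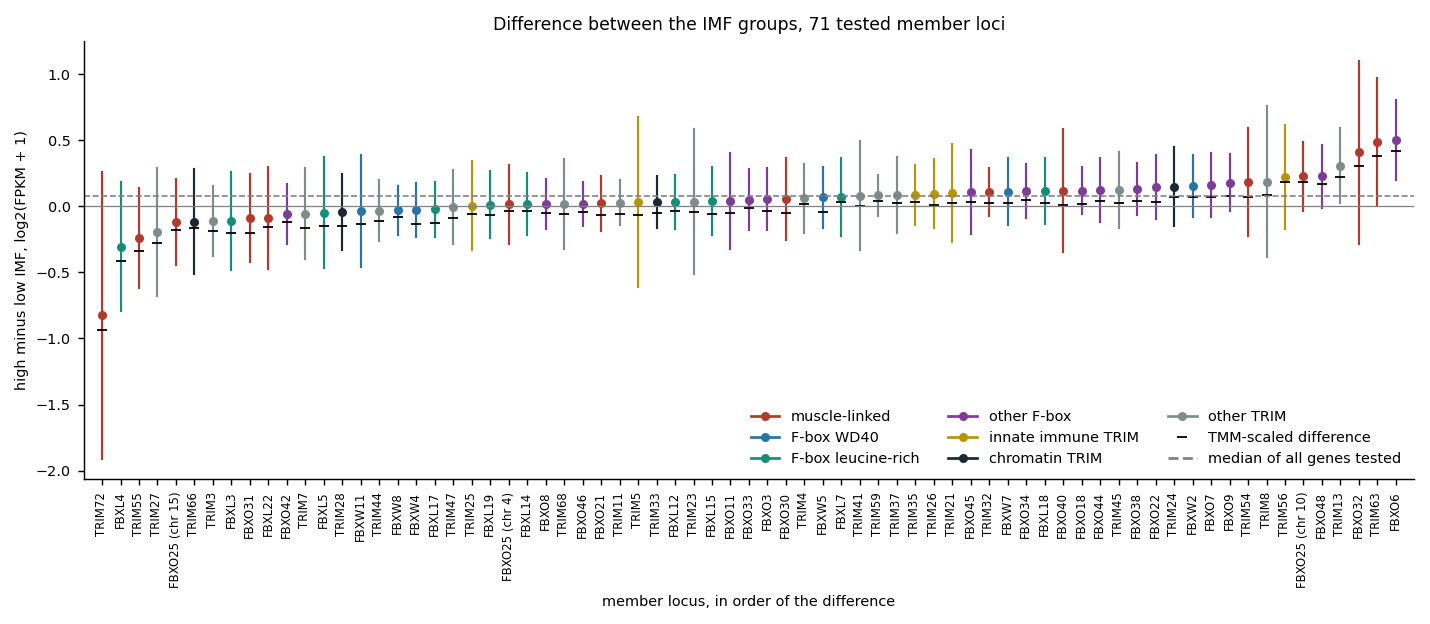
Difference between high and low IMF on the log2(FPKM + 1) scale for the 71 tested loci, with 95% intervals from limma; colours are role groups, black ticks the TMM-scaled difference, the dashed line the median of all genes tested. The differences run from −0.83 for TRIM72 to 0.50 for FBXO6, and the intervals of FBXO6, TRIM13 and TRIM63 lie above 0.

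TRIM63, which marks proteins of the thick filament for degradation, was 44.5 to 169 FPKM in high IMF muscle (median 81.1) and 35.7 to 142 FPKM in low IMF muscle (median 54.3). The ranges overlapped almost fully, although the low IMF median was exceeded by 10 of 12 high IMF animals. Its difference was 0.49 ± 0.23 (log2, SE; unadjusted p = 0.0448, limma adjusted p = 0.642). The 3 highest animals were high IMF animals 5 and 2 and low IMF animal 10. With each animal left out in turn TRIM63 differed by 0.40 to 0.61 (unadjusted p from 0.00958 to 0.0900), and by its reference transcript alone by 0.25 (unadjusted p = 0.376).

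FBXO32, whose substrates include the translation factor EIF3F and MYOD1, was 10.6 to 65.6 FPKM in high IMF muscle (median 24.4) and 9.38 to 95.1 FPKM in low IMF muscle (median 18.4). The highest value of all belonged to low IMF animal 10, and the groups overlapped throughout. The difference was 0.41 ± 0.34 (unadjusted p = 0.236, limma adjusted p = 0.785), and 0.61 without low IMF animal 10 (unadjusted p = 0.0504, limma adjusted p = 0.335). For TRIM63 the value without that animal was 0.61 (unadjusted p = 0.00958, limma adjusted p = 0.207).

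The relatives of TRIM63 showed no shared direction. TRIM54 (MuRF3), a microtubule-binding ligase, was 35.1 to 146 FPKM in high IMF (median 54.9) and 36.2 to 83.2 FPKM in low IMF animals (median 51.2), a difference of 0.19 ± 0.20 (unadjusted p = 0.360). Its 2 highest values, 146 and 128 FPKM, were those of high IMF animals 2 and 6, and without either of these animals the difference was 0.07 or 0.09. TRIM55 (MuRF2), which binds titin, was 1.96 to 8.53 FPKM in high IMF (median 6.00) and 3.14 to 9.22 FPKM in low IMF animals (median 7.55), a difference of −0.24 ± 0.18 (unadjusted p = 0.206), or −0.13 without high IMF animal 9.

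FBXO40 was 27.5 to 117 FPKM in high and 22.5 to 82.3 FPKM in low IMF muscle, with medians of 37.0 and 37.2 FPKM, and its difference was 0.12 ± 0.23 (unadjusted p = 0.606). FBXO31 ranged from 17.1 to 49.4 FPKM in high and from 19.5 to 51.0 FPKM in low IMF muscle, and FBXO30 from 10.2 to 26.2 and from 11.8 to 26.5 FPKM. FBXO21 (SMART), another F-box gene of muscle wasting, stayed within 2.84 and 5.91 FPKM in all 24 animals. For these 3 the differences were −0.09, 0.06 and 0.02 with SE of 0.16, 0.15 and 0.10, and the sign of the last 2 turned under TMM scaling (−0.05 and −0.07).

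Of the remaining muscle-linked genes, TRIM32, a ligase mutated in a limb-girdle muscular dystrophy, averaged 2.85 FPKM with a difference of 0.11 (unadjusted p = 0.217). FBXL22, an F-box protein of the sarcomere, averaged 1.38 FPKM with a difference of −0.09 (unadjusted p = 0.648). FBXO25, the closest relative of FBXO32, was at 1.18 ± 0.532 FPKM in high and 1.42 ± 0.785 FPKM in low IMF muscle at its locus on chromosome 15, with a difference of −0.12 (unadjusted p = 0.456). The unstranded transcripts named FBXO25 on chromosomes 4 and 10 averaged 0.952 and 0.797 FPKM and lie outside the RefSeq gene of that symbol. Their differences were 0.01 and 0.23 (unadjusted p = 0.923 and 0.0872), opposite in sign to that on chromosome 15.

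**Figure D3:**
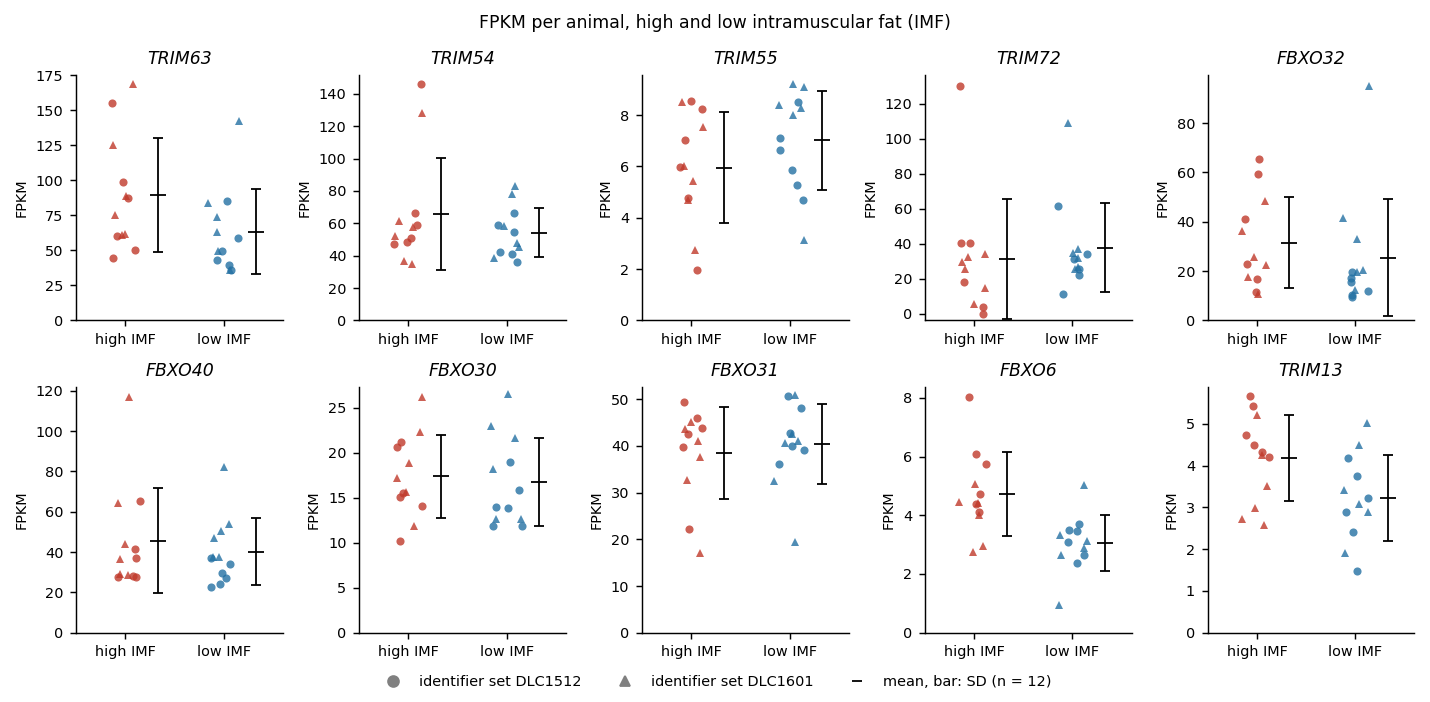
FPKM of 10 members in each animal, high IMF in red and low IMF in blue; circles are animals of identifier set DLC1512, triangles those of set DLC1601, and black bars mean ± SD (n = 12). The groups overlap in every panel; in FBXO6 the low IMF median of 3.11 FPKM lies below 10 of the 12 high IMF points.

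TRIM72 had the largest difference of any member. Its 1 listed transcript, on chromosome 3 from 17288941 to 17297774, was 0.101 to 130 FPKM in high IMF muscle (median 27.6) and 11.6 to 109 FPKM in low IMF muscle (median 31.6), a difference of −0.83 ± 0.53 (unadjusted p = 0.130, limma adjusted p = 0.717). A second transcript of 6 exons and 1231 bases, with the same ends and strand but no gene name, was 1.73 FPKM in high IMF animal 7 and 2.15 FPKM in low IMF animal 4, where the named one was highest at 130 and 109 FPKM. In high IMF animal 2 the named transcript was at 0.101 and the unnamed one at 16.5 FPKM. The sum of both ran from 16.6 to 132 FPKM, with means of 70.3 ± 36.3 in high and 66.9 ± 22.7 FPKM in low IMF muscle (SD, n = 12 each), and its difference was −0.11 (unadjusted p = 0.728). Without high IMF animal 2 the difference of the named transcript was −0.45 (unadjusted p = 0.288), and without high IMF animal 7 it was −1.08 (unadjusted p = 0.0384, limma adjusted p = 0.765).

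Among the other F-box genes FBXO6 stood out by p-value. FBXO6 binds the sugar chains of misfolded glycoproteins and works in their disposal from the endoplasmic reticulum. It was 2.74 to 8.02 FPKM in high IMF muscle (median 4.43) and 0.931 to 5.03 FPKM in low IMF muscle (median 3.11), with means of 4.73 ± 1.42 and 3.06 ± 0.958 FPKM (SD, n = 12 each). The difference was 0.50 ± 0.15 (unadjusted p = 0.00227, limma adjusted p = 0.2996), 10 of 12 high IMF animals exceeded the low IMF median, and 1 of 12 low IMF animals exceeded the high IMF median. It stayed between 0.41 and 0.56 when each animal was left out in turn.

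FBXO6 lies on chromosome 6 from 71755359 to 71774262, directly after its relative FBXO44, which ends at 71754515. FBXO44 averaged 2.49 FPKM with a difference of 0.12 (unadjusted p = 0.312). At its far end FBXO6 overlaps transcripts of MAD2L2 on the opposite strand, and without strand in the counting, which the labels do not state, reads of the overlap cannot be assigned to either gene. The same holds for FBXO40 with HCLS1, FBXO22 with NRG4 and TRIM28 with UBE2M and CHMP2A. FBXL15 likewise overlaps a CUEDC2 transcript averaging 22.9 FPKM, and TRIM66 an RPL27A transcript averaging 14.0 FPKM. In total 15 members overlap another listed locus.

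The 16 FBXO genes outside the muscle-linked list, FBXO6 among them, included 15 with a difference above 0 and a median of 0.12, or 10 above 0 and a median of 0.03 after TMM scaling. FBXO48 was at 1.31 ± 0.441 and 0.975 ± 0.364 FPKM (difference 0.23, unadjusted p = 0.0602), and FBXO9 at 11.08 ± 2.54 and 9.52 ± 1.22 FPKM (difference 0.18, unadjusted p = 0.0981), high IMF first. FBXO22, the ligase of the histone demethylase KDM4 and of BACH1, was at 22.5 ± 3.48 and 20.6 ± 5.19 FPKM (difference 0.14, unadjusted p = 0.233).

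The WD-repeat group showed small differences: its 6 genes differed by −0.04 to 0.15, and 0 had an unadjusted p under 0.05. FBXW5 was at 27.2 ± 5.37 FPKM in high and 25.8 ± 4.51 FPKM in low IMF muscle. FBXW11, one of the ligases of beta-catenin, was at 8.85 ± 3.34 and 8.77 ± 2.66 FPKM, and FBXW7, the ligase of MYC and cyclin E, at 3.41 ± 0.932 and 3.06 ± 0.739 FPKM.

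In the leucine-rich group FBXL4, a protein of the mitochondrion whose loss depletes mitochondrial DNA, was the member of highest level. It was 2.76 to 20.8 FPKM in high IMF muscle (median 13.4) and 9.998 to 21.2 FPKM in low IMF muscle (median 14.99), a difference of −0.30 ± 0.24 (unadjusted p = 0.214). Without high IMF animal 6 it was −0.15 and without high IMF animal 2 it was −0.20. The iron sensor FBXL5 was at 8.75 ± 3.40 and 9.14 ± 3.61 FPKM, and none of the 10 genes in this group had an unadjusted p under 0.05.

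Among TRIM genes outside muscle, TRIM13, a ligase anchored in the endoplasmic reticulum, was 2.59 to 5.68 FPKM in high IMF muscle and 1.48 to 5.01 FPKM in low IMF muscle. The means were 4.18 ± 1.03 and 3.23 ± 1.03 FPKM, the difference 0.31 ± 0.14 (unadjusted p = 0.0346, limma adjusted p = 0.624), and 9 of 12 high IMF animals exceeded the low IMF median. TRIM13 overlaps SPRYD7 on the opposite strand. TRIM7, which binds the glycogen primer glycogenin, was at 14.2 ± 4.23 and 14.8 ± 4.46 FPKM.

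The innate immune TRIM genes were low and uneven. Of the 15 symbols on that list 6 are in the table, and their differences ran from 0.00 for TRIM25 to 0.22 for TRIM56, with 0 of 6 at an unadjusted p under 0.05. TRIM5, which binds retroviral capsids, ranged from 0.599 to 14.4 FPKM in high IMF and from 1.44 to 8.42 FPKM in low IMF muscle, so the spread inside the high IMF group was the wider one. The 4 chromatin TRIM genes differed by −0.12 to 0.15. Their most abundant member TRIM28 (KAP1), the corepressor of zinc finger proteins, was at 18.4 ± 4.71 and 19.1 ± 4.76 FPKM.

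The single transcripts gave no call either. Of 135 member transcripts with a mean of at least 0.5 FPKM, 0 had an adjusted p under 0.05 (limma over 21405 transcripts, 0.0187% called higher and 0% lower; lowest adjusted p among members 0.494). At an unadjusted p under 0.05, 6 were higher and 1 was lower in high IMF muscle, where 5.25% and 1.09% of all transcripts were. After TMM scaling these counts were 3 and 4, against 2.79% and 2.25% of all transcripts. By the p-values of the authors' deposited table, 6 of 137 member transcripts were under 0.05, 4 higher in high and 2 higher in low IMF muscle, where 3.84% and 2.55% of all transcripts were. The lowest of its 3 kinds of q-value was 0.294 for a member.

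FBXW4 accounts for 3 of the 7 member transcripts that limma put under the unadjusted limit, and they pointed both ways. FBXW4, a WD-repeat F-box gene in the region of the split hand and foot malformations, lies on chromosome 14 from 112618871 to 112736013 and has 6 listed transcripts. The gene as a whole was 19.1 to 33.6 FPKM in high and 17.5 to 32.2 FPKM in low IMF muscle, a difference of −0.03 ± 0.10 (unadjusted p = 0.793). Its transcript ENSSSCT00000011558 was at 19.8 to 24.7 FPKM in 6 animals, high IMF animal 2 and low IMF animals 1, 5, 8, 10 and 11, and at 0.0209 to 4.51 FPKM in the other 18.

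In those 6 animals this transcript held 76.7% to 85.4% of the FPKM of FBXW4, and in the other 18 at most 17.0%, with no animal between. The 6 animals came from both groups, 1 high and 5 low IMF. Its difference was −1.71 (unadjusted p = 0.00638, limma adjusted p = 0.558), while ENSSSCT00000053883 and MSTRG.4940.1 differed by 0.86 and 0.83 (unadjusted p = 0.00627 and 0.00852, limma adjusted p = 0.558 and 0.572). In the authors' deposited table the first had a low over high fold of 3.58 (p-value 0.0108, q-value 0.821). FBXW4 overlaps DPCD on the opposite strand.

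Other members held such splits too, here described after their values were seen. FBXO40 was led by ENSSSCT00000013002 in 11 animals (4 high, 7 low IMF), where it held 47.8% to 76.7% of the gene's FPKM, and by ENSSSCT00000041480 in the other 13, where the first held at most 11.3%. TRIM45 transcript ENSSSCT00000035997 held 53.0% to 82.1% in 6 animals and at most 7.09% in 18. In TRIM63 the assembled isoform MSTRG.12441.3 held 88.0% to 91.3% of the gene in 23 animals and 15.1% in low IMF animal 3, where the reference transcript was at 30.3 FPKM and the isoform at 5.41 FPKM.

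Of the 40 loci with at least 2 transcripts, 12 had the same leading transcript in all 24 animals, as had 1348 of the 5028 such genes in the whole table (26.8%). FBXW4 and FBXW11 each had 4 different leaders. A fit of the share of each transcript in its gene called 0 of 105 member transcripts (limma, lowest adjusted p 0.973, 0% of 15024 called), with 6 shares higher and 4 lower at an unadjusted p under 0.05, where 2.61% and 2.34% of all shares were. Isoforms of a gene share exons, so the value of a transcript depends on how reads were divided between them, and the part of that division in the splits was not tested.

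**Figure D4:**
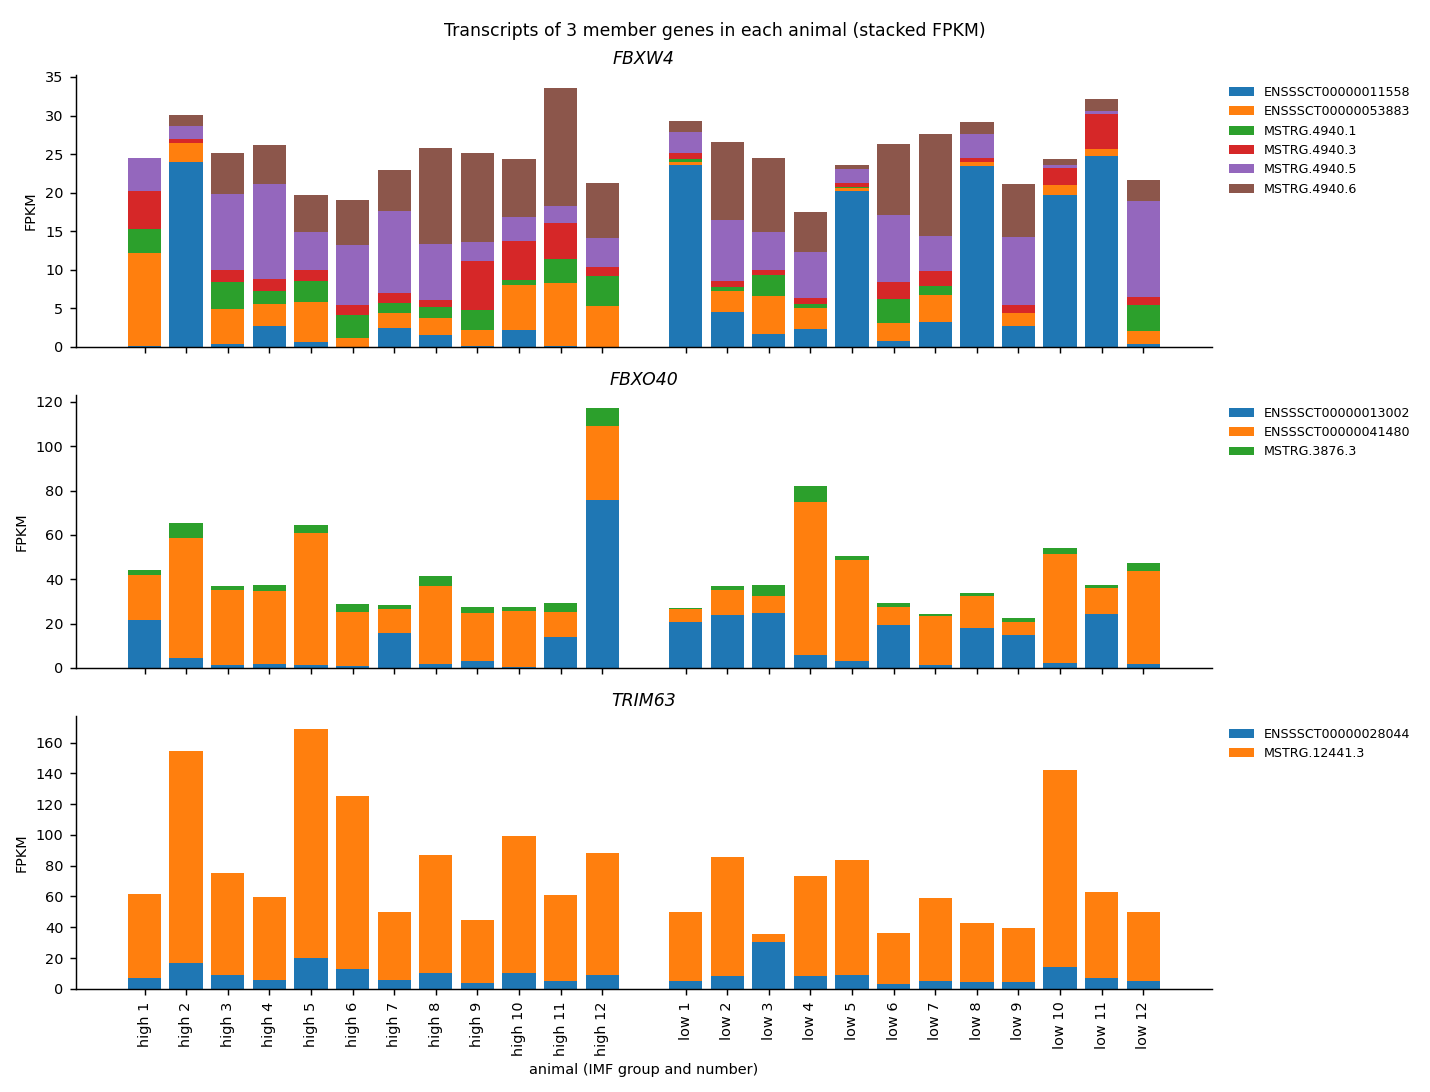
FPKM of each listed transcript of FBXW4, FBXO40 and TRIM63, stacked, in each of the 24 animals, high IMF on the left and low IMF on the right. ENSSSCT00000011558 fills most of the FBXW4 bar in 6 animals and little in the other 18, ENSSSCT00000013002 leads FBXO40 in 11 animals, and low IMF animal 3 is the 1 animal in which the reference transcript leads TRIM63.

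The identifier sets offered a grouping of the same animals apart from fat class. With IMF as a term, 0 of 71 members differed between set DLC1601 and set DLC1512 at an adjusted p under 0.05 (limma, lowest adjusted p 0.767, 0% of 11757 genes called). At an unadjusted p under 0.05, 3 members were higher and 7 lower in set DLC1601, where 3.25% and 3.23% of all genes were. FBXO40 led, with 33.5 ± 11.5 FPKM in set DLC1512 and 52.4 ± 25.4 FPKM in set DLC1601 (SD, n = 12 each), a difference of 0.57 ± 0.20 (unadjusted p = 0.00843). The median of set DLC1512 was exceeded by 11 of the 12 animals of set DLC1601. TRIM8, a ligase of cytokine signalling, was at 3.14 ± 1.45 and 5.63 ± 2.55 FPKM (difference 0.66, unadjusted p = 0.0138). FBXW5 was the other way, at 29.0 ± 4.07 and 24.1 ± 4.58 FPKM (difference −0.26, unadjusted p = 0.0162), as was TRIM28 at 21.0 ± 4.90 and 16.5 ± 3.21 FPKM (difference −0.32, unadjusted p = 0.0204). After TMM scaling the counts were 6 and 7, against 3.85% and 4.61% of all genes.

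Whether the IMF difference itself changed with the set was tested as an interaction, and 0 of 71 members passed (limma, lowest adjusted p 0.998, 0% of all genes called). FBXO32 and FBXO7 had unadjusted p-values under 0.05 for it, at −1.39 ± 0.62 (p = 0.0345) and −0.51 ± 0.22 (p = 0.0323), where 2.54% of all genes did in that direction. In the other direction 0 members and 0.748% of all genes did. In set DLC1512 FBXO32 was at 36.3 ± 22.7 FPKM in high and 13.9 ± 4.10 FPKM in low IMF muscle (SD, n = 6 each), and in set DLC1601 at 26.8 ± 13.6 and 37.0 ± 30.3 FPKM.

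In set DLC1512 the ranges of FBXO6, 4.13 to 8.02 FPKM in high and 2.38 to 3.70 FPKM in low IMF muscle, did not overlap, nor did those of TRIM13 at 4.20 to 5.68 and 1.48 to 4.18 FPKM. Such a gap in that direction was found in 2 of 71 members and 0.434% of all genes, and the opposite gap in 0 members and 0.017% of all genes. FBXO6 and TRIM13 were singled out by the same contrast over animals that include these, so the gap is a description and no separate test. In set DLC1601 the ranges of both overlapped, and no member had a gap in either direction (0.0851% and 0.0425% of all genes). All 3 pairs of animals that share 9 identifier digits lie in set DLC1512, 1 pair in high and 2 in low IMF. With 1 animal of each such pair, the difference over both sets was 0.53 for FBXO6 (unadjusted p = 0.00436, limma adjusted p = 0.453) and 0.27 for TRIM13 (unadjusted p = 0.0889, limma adjusted p = 0.763).

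Across the 24 animals 4 of the 15 pairs of 6 muscle-linked genes passed the test of correlation: the 3 pairs among FBXO32, TRIM63 and FBXO40, and FBXO30 with FBXO21. The share of passing pairs among other genes is not given here. FBXO32 and TRIM63 had a Pearson r of 0.64 (permutation p = 0.00062, adjusted over 15 pairs 0.00465) and a Spearman rho of 0.63 (permutation p = 0.00127, adjusted 0.00635). FBXO32 and FBXO40 had r = 0.61 (adjusted permutation p = 0.0077) and rho = 0.64 (adjusted 0.00635). TRIM63 and FBXO40 had r = 0.51 (adjusted permutation p = 0.0354) and rho = 0.52 (adjusted 0.0390). The strongest of the 15 was FBXO30 with FBXO21, at r = 0.80 and rho = 0.83 (adjusted permutation p = 0.00015 for each). Between those 3 genes and these 2 no pair passed: FBXO32 had r = 0.42 with FBXO30 and 0.41 with FBXO21, TRIM63 0.20 and 0.15, and FBXO40 0.39 and 0.24.

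Without the 2 animals farthest from the median of the first gene, the 4 values of r were 0.49, 0.56, 0.39 and 0.87, and 0.76 for FBXO30 with FBXO21 when the 2 were chosen by FBXO21. For FBXO32 with TRIM63, r was 0.55 within high IMF, 0.68 within low IMF, 0.76 within set DLC1512 and 0.47 within set DLC1601. For FBXO32 with FBXO40 these were 0.61, 0.61, 0.53 and 0.66, for TRIM63 with FBXO40 0.48, 0.57, 0.73 and 0.27, and for FBXO30 with FBXO21 0.64, 0.93, 0.92 and 0.70. After TMM scaling the 4 values were 0.55, 0.52, 0.49 and 0.67, and TRIM63 with FBXO40 no longer passed (adjusted permutation p = 0.0525). The TMM-scaled rho of the first 3 pairs did not pass either (adjusted permutation p = 0.0850, 0.0876 and 0.0876). FBXO31 passed with none of the other 5, its r running from −0.27 with TRIM63 to 0.13 with FBXO32.

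Over all 1830 pairs of the 61 loci with a mean of at least 1 FPKM, the median r was 0.16, and 130 pairs above 0 and 8 below 0 had an adjusted permutation p under 0.05. After TMM scaling the median was 0.01 and the counts were 25 and 11, so fewer pairs passed once the libraries were scaled. The median and the passing share for pairs of all genes are not given here. Whether these counts are particular to the members was not tested. The highest pair joined TRIM5 and TRIM25, the ligase that activates the RNA sensor RIG-I, at r = 0.86 and rho = 0.88, 0.85 after TMM scaling, and 0.78 without the 2 animals farthest from the median. It was followed by FBXO21 with TRIM44 at 0.85 (TMM 0.85) and FBXL15 with FBXW5 at 0.84 (TMM 0.86), with adjusted permutation p = 0.0020 for each of the 3.

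TRIM28 was in 6 of the 8 pairs below 0 that passed, and 2 of these 6, with FBXO30 and FBXO21, also passed after TMM scaling. The 11 pairs below 0 that passed after TMM scaling include FBXO45 with TRIM54 and FBXL22 with FBXO38. Both had r = −0.74 there (adjusted permutation p = 0.00366 and 0.0114). The lowest pair of TRIM28 was with FBXO30, at r = −0.68 and rho = −0.67 (adjusted permutation p = 0.0113 and 0.0144). It was −0.69 after TMM scaling (adjusted permutation p = 0.0183) and −0.71 without the 2 animals farthest from the median. Within high IMF, low IMF, set DLC1512 and set DLC1601 that r was −0.65, −0.71, −0.86 and −0.42. TRIM5 with TRIM25 gave 0.91, 0.81, 0.90 and 0.84 in the same order.

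**Figure D5:**
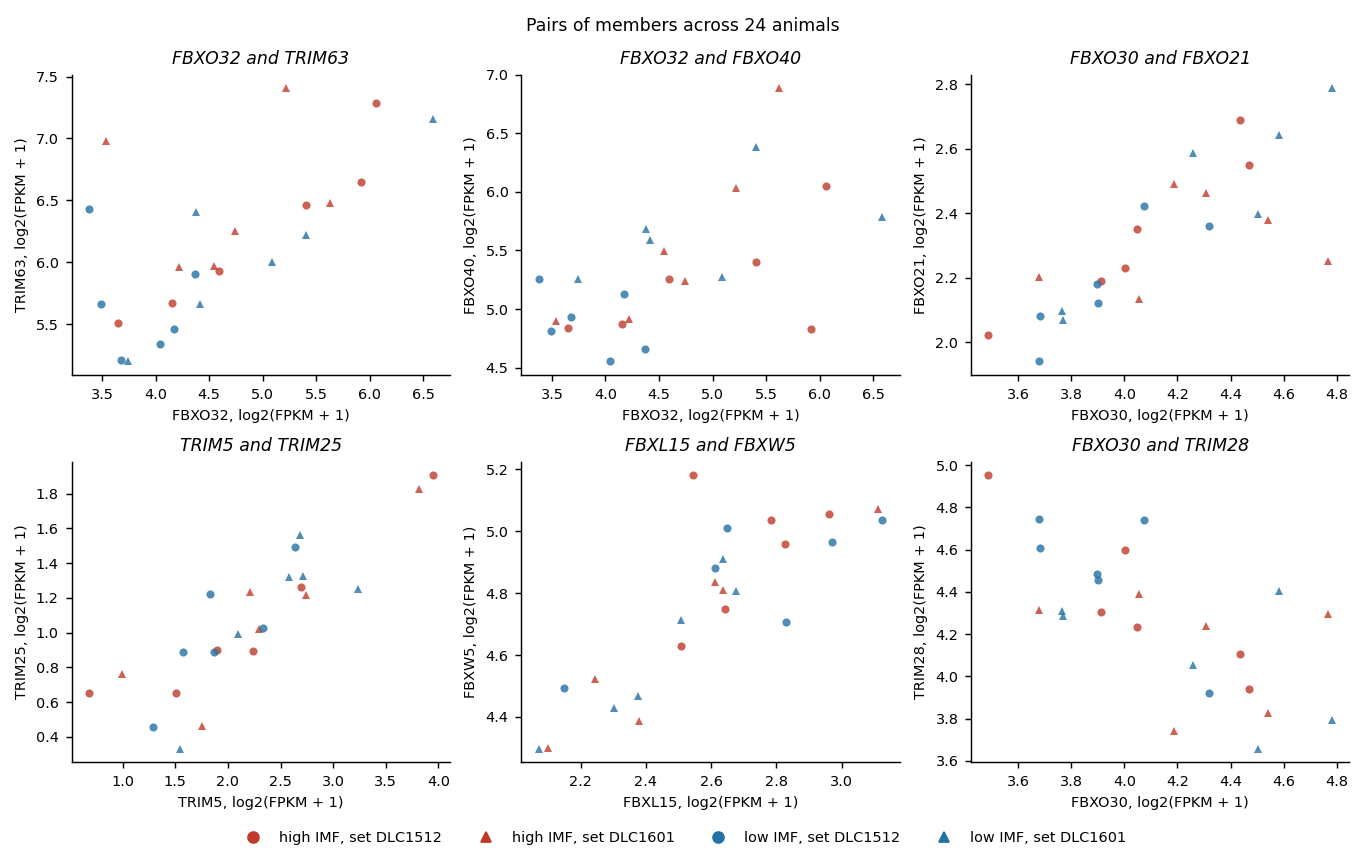
The 6 plots show pairs of members across the 24 animals, each axis log2(FPKM + 1); red is high IMF, blue low IMF, circles identifier set DLC1512 and triangles set DLC1601. FBXO32 is higher where the second gene is higher in its pairs with TRIM63 (r = 0.64) and FBXO40 (r = 0.61), as are FBXO30 with FBXO21 (r = 0.80), TRIM5 with TRIM25 (r = 0.86) and FBXL15 with FBXW5 (r = 0.84), and TRIM28 is lower where FBXO30 is higher (r = −0.68).

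The partners of these ligases were read from lists of pathway genes. Of 22 tested genes of the SCF core and its regulators 0 were called, 3 were higher (DCUN1D5, COPS2 and NEDD8) and 1 lower (DCUN1D2) in high IMF muscle at an unadjusted p under 0.05, a limit that took 6.79% of all genes as higher and 0.893% as lower, and the median difference was 0.18 (0.08 after TMM scaling). After TMM scaling 0 were higher and 1, DCUN1D2, was lower, where 2.77% and 2.31% of all genes were. NEDD8, the modifier that switches cullins on, was at 87.8 ± 19.3 and 73.1 ± 16.3 FPKM (limma adjusted p = 0.642). Of 16 tested genes for ubiquitin and its E1 and E2 enzymes 0 were called, and 3 were higher at an unadjusted p under 0.05 (UBE2G2, UBE2E1 and UBE2V2), with a median of 0.13. After TMM scaling 0 were, and the median was 0.02.

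Among 12 tested substrates of members 0 were called and 2 were lower at an unadjusted p under 0.05: TTN (titin), at 3.14 ± 2.55 and 6.76 ± 4.84 FPKM, and MYOD1, at 18.8 ± 7.76 and 24.8 ± 6.84 FPKM (limma adjusted p = 0.518 and 0.636). That limit took 0.893% of all genes as lower and 6.79% as higher. Both stayed under 0.05 after TMM scaling, where 2.31% of all genes were lower. Of the 12 substrates 6 lay above 0, with a median of −0.004. Of the 12 markers of muscle fibres 3 lay above 0, with a median of −0.16. The 16 tested genes around FOXO and glucocorticoid signalling include regulators such as FOXO1 and NR3C1 and other genes such as PDK4 and FKBP5. Of these 16, 0 were called and 0 had an unadjusted p under 0.05, with a median of 0.07. The 12 interferon-induced genes and the 6 F-box genes named outside the rule gave 0 of each as well, with medians of −0.03 and 0.05.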

How the data were processed

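Longissimus dorsi polyA RNA of 24 pigs, 12 of high and 12 of low IMF, was analysed from 1 deposited table with a value per transcript and animal. Its header names no unit, and FPKM was read from how the deposited values sum and step. Per the submitters' processing notes HISAT2 2.0.5, StringTie 1.3.3 and the genome Sscrofa11.1 were used; for their roles, the strand setting and the annotation release nothing is given in the sources used here. The authors' fold change (a ratio, low over high IMF), p-value and q-values are in the same deposited table, per the file headers. Coordinates are those of the table, and 69 of 70 symbols matched the RefSeq gene table for Sscrofa11.1. Of the 72 loci 66 overlapped the RefSeq gene of their symbol. The 6 that did not are FBXW5, TRIM5, TRIM27, TRIM46 and FBXO25 on chromosomes 4 and 10. For FBXW5 and TRIM27 RefSeq lists no chromosome. No sequence was used.

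FPKM was summed per symbol and chromosome. Genes and transcripts with a mean of at least 0.5 FPKM were fitted with limma 3.58.1 (R 4.3.3; trend, robust) on log2(FPKM + 1), which understates the change of low genes, high minus low IMF, with Benjamini-Hochberg adjustment over all features at 0.05. Correlations used 100000 permutations (Python 3.11.15, numpy 2.4.6, scipy 1.17.1). Depth was inferred from values within 0.05 base of whole steps (67.9% to 83.7% of 63 to 140 low values per library). TMM (trimming 30% of M and 5% of A values) and upper-quartile scaling, a pseudocount of 0.1, other filters, terms and left-out animals were tried as alternatives. The fits were tested on simulated data. Each library is taken as 1 animal; p-values measure the spread between them.

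The members and lists were chosen with earlier results of these data known. Named are the muscle-linked list, the 5 smallest p per direction, the most abundant members and those of each role group, the 5 smallest p per direction between sets, and FBXW4; others were chosen after their values were seen. Isoform shares, all-pair correlations, the TRIM72 sum and the values within sets were added after seeing the data.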

Additional observations from a re-analysis of the deposited data

How the results depend on the processing

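No paired analysis was possible because the labels give no replicate numbers shared between the groups. In none of the 12 alternative fits of genes, the 11 of transcripts, the 6 between sets, the 2 of shares and the 24 with 1 animal left out (genes and transcripts) was any member called: their lowest adjusted p-values (limma) ran from 0.172 to 0.671, 0.370 to 0.683, 0.553 to 0.840, 0.957 to 0.972, and, with an animal left out, 0.146 to 0.468 for genes and 0.278 to 0.635 for transcripts. The member genes higher at an unadjusted p under 0.05 were 3 as reported, against 798 of all genes. They were 1 under TMM scaling (325 of all genes), upper-quartile scaling (304) and 1 animal per shared 9 identifier digits (710). At a mean of at least 5 FPKM 1 member, TRIM63, was higher, as were 452 of all genes. That filter leaves 23 members to test and takes out FBXO6 and TRIM13. With an animal left out 1 to 5 members were higher. That count was 5 without low IMF animal 10 and 1 without high IMF animal 8 or 10 or low IMF animal 1 or 3. With high IMF animal 7 and low IMF animal 10 both out, 6 members were higher and 1 was lower, where 1328 and 110 of all genes were. Member transcripts were 6 higher and 1 lower as reported. They were 2 to 3 higher under TMM or upper-quartile scaling, 1 animal per shared 9 identifier digits or the 5 FPKM filter. In these fits 596, 572, 998 and 420 of all transcripts were higher, against 1123 in the main fit. The filter at 5 FPKM leaves 24 member transcripts to test. In 7 fits 2 to 5 were lower, where 232 to 516 of all transcripts were, against 234 in the main fit. With an animal left out 3 to 9 member transcripts were higher and 1 to 4 lower. Counts over all genes or transcripts are not given here for the fits with 1 animal left out. Correlated muscle-linked pairs, 4 as reported, were 0 within high IMF and 2 within set DLC1601, where 12 animals enter. Those 2 are FBXO32 with FBXO30 and with FBXO21, and 0 of the 4 reported pairs passed there. Within low IMF 3 pairs passed, 1 of them among the 4.

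Over 42 named loci 1408 of 1483 differences kept their sign. With array weights FBXL17 was 0.012, FBXL5 0.0091 and TRIM5 −0.022. With 1 animal per shared 9 identifier digits (21 animals) FBXL22 was 0.0046, FBXL5 0.019, FBXO21 −0.023, FBXO25 on chromosome 4 −0.033, FBXO30 −0.016, FBXW11 0.14, FBXW4 0.0025, TRIM28 0.076, TRIM5 −0.14 and TRIM7 0.0042. With the level of the Y-linked EIF1AY as a term FBXL5 was 0.0030, FBXW11 0.031 and TRIM5 −0.0075. Under TMM scaling FBXO21 was −0.066, FBXO25 on chromosome 4 −0.039, FBXO30 −0.049, FBXW5 −0.042, TRIM11 −0.055, TRIM33 −0.047, TRIM5 −0.063, the median of member genes −0.037 and the median of member transcripts −0.021. Under upper-quartile scaling FBXO21 was −0.072, FBXO25 on chromosome 4 −0.041, FBXO30 −0.056, FBXW5 −0.048, TRIM11 −0.061, TRIM33 −0.052, TRIM5 −0.066, the median of member genes −0.041 and the median of member transcripts −0.024. With high IMF animal 7 and low IMF animal 10 both out FBXO25 on chromosome 4 was −0.017. With reference transcripts alone FBXO44 was −0.058 and TRIM7 0.19. With a pseudocount of 0.1 TRIM5 was −0.032. The cause was not tested.

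With an animal left out the sign turned in FBXL17 (−0.059 to 0.016), FBXL5 (−0.13 to 0.039), FBXO21 (−0.012 to 0.066), FBXO25 on chromosome 4 (−0.045 to 0.069), FBXO31 (−0.18 to 0.0094), FBXO40 (−0.018 to 0.22), FBXW11 (−0.12 to 0.097), FBXW4 (−0.071 to 0.0058), TRIM11 (−0.0066 to 0.065), TRIM28 (−0.11 to 0.0035), TRIM33 (−0.00024 to 0.075), TRIM5 (−0.12 to 0.17) and TRIM7 (−0.13 to 0.014). It kept its sign but moved by over 1.5 times in FBXL22 (−0.17 to −0.0050), FBXL4 (−0.38 to −0.15), FBXO22 (0.094 to 0.20), FBXO25 on chromosome 15 (−0.18 to −0.052), TRIM32 (0.062 to 0.14), TRIM54 (0.070 to 0.25) and TRIM55 (−0.32 to −0.13), among others. The depth is inferred, and no count model was used.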
